A study of Mus musculus with 68 samples.

Results

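The miR-29 family of the mouse lung was followed over all of its small RNA rows, which were those named for miR-29a, miR-29b or miR-29c at any locus and on either arm. These were 8 of 480 rows in the small RNA table, from 4 hairpins with a 5p and a 3p arm each. Among them were mmu-mir-29b-1-3p, mmu-mir-29b-2-3p and mmu-mir-29c-5p, written below without the species prefix. Of the 8 rows, 6 had a value in every library and were tested together with 314 other such miRNAs. The series held 68 lung samples of wild-type male mice, of which 24 RNA-seq and 20 small RNA-seq libraries were used, and the 24 chromatin accessibility samples were not analysed here. The mice were of the inbred strain C57BL/6J or of CAST/EiJ, a strain derived from wild mice, and they breathed clean air or 1,3-butadiene (BD), an inhaled carcinogen. Exposure lasted 6 h per weekday over 2 weeks, and ages were not given in the labels. Small RNA libraries numbered 5 for C57BL/6J in clean air, 4 for C57BL/6J under BD, 7 for CAST/EiJ in clean air and 4 for CAST/EiJ under BD. The RNA-seq groups of the same order held 5, 6, 7 and 6 libraries. The labels do not say whether each library came from a separate animal, so p-values measured the spread between these libraries.

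MicroRNAs are short RNAs cut from a hairpin precursor and loaded into Argonaute proteins, where the seed (bases 2 to 8) pairs with target mRNAs and lowers their stability or translation. The miR-29 family is best known for repressing collagens, elastin and other matrix genes, and falls in many fibrotic tissues, lung included. It also targets the DNA methyltransferases Dnmt3a and Dnmt3b and the demethylating Tet enzymes, and pro-survival genes such as Mcl1.

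The sequences below show what the 3p arms share and where the 5p arms part, with the seed in capitals, 5′ to 3′. All 8 rows matched a RefSeq entry (build GRCm38.p6, whereas the counts were made on mm9).
miR-29a-3p: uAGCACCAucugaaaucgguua
miR-29b-3p: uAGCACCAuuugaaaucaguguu
miR-29c-3p: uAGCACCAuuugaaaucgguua
miR-29a-5p: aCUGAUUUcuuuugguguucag
miR-29b-1-5p: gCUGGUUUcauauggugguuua
miR-29b-2-5p: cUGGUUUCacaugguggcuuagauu
miR-29c-5p: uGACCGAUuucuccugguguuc
The 3 mature 3p sequences had the same seed, and the 4 mature 5p sequences had 4 different seeds. Counted from the 5′ end, miR-29a-3p and miR-29c-3p differed at 1 of 22 bases (C10U), and miR-29a-3p and miR-29b-3p at 4 (C10U, G18A, U21G and A22U). miR-29b-3p and miR-29c-3p differed at 3 (A18G, G21U and U22A).

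The family lies in a pair of clusters. Mir29a (chr6:31062660-31062747, minus strand) and Mir29b-1 (chr6:31063023-31063093, minus strand) are 275 bases apart, and Mir29b-2 (chr1:195037040-195037120, plus strand) and Mir29c (chr1:195037547-195037634, plus strand) are 426 bases apart. The miR-29b hairpins are shown because they hold an identical 3p arm, with both arms in capitals.
Mir29b-1: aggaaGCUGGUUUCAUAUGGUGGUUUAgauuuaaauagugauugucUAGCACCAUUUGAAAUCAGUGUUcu
Mir29b-2: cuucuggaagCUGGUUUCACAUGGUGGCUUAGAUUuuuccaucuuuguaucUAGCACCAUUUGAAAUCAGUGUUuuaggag
Reads of miR-29b-3p therefore cannot be assigned to a locus by the mature sequence. The table gave the 2 loci almost equal values. The row of locus 2 was higher in 20 of 20 libraries, by 6–92 counts or 1.29–7.25% of its value. The rows miR-29b-1-3p and miR-29b-2-3p are thus not independent measurements, and each result for one is also that of the other.

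Libraries are named here by the number in their title. Library number 8, labelled CAST/EiJ BD, was kept apart. On a strain index over 30 miRNAs, with 0 at clean-air C57BL/6J and 1 at clean-air CAST/EiJ, it stood at 0.129, whereas the other 3 of its label stood at 0.806–0.871. In RNA-seq it stood at 0.126, against 0.975–1 in the others of its label. The C57BL/6J BD libraries stood at 0.0181–0.217 in small RNA, which enclosed number 8. In RNA-seq they stood at 0.0169–0.0418, below number 8. Small RNA libraries held 2066588–8474182 counts. The deepest were C57BL/6J BD numbers 15, 16 and 17. RNA-seq libraries held 10601756–50001571 counts. Among clean-air libraries, 5 of 7 from CAST/EiJ and 1 of 5 from C57BL/6J had a title number over 100. No BD library had one, and the labels do not say what the numbers stand for. Defining genes of lung epithelium (Sftpc, Sftpb, Sftpa1, Scgb1a1 and Ager) were detected at a summed 20810–33550 counts per 1e+06 (CPM) over the groups. Squamous keratins (Krt5, Krt13, Krt14 and Krt4) summed to 1.785–2184 CPM and varied within every group, and among clean-air C57BL/6J libraries the 1 numbered over 100 was the highest, at 1533 CPM.

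Nearly all miR-29 counts came from the 3p arms of miR-29a and miR-29c. In C57BL/6J the summed family level was 9064 ± 426 CPM in clean air (SD, n = 5) and 11680 ± 1453 CPM under BD (SD, n = 4). In CAST/EiJ it was 11460 ± 1077 CPM in clean air (SD, n = 7) and 10390 ± 327 CPM under BD (SD, n = 3). miR-29a-3p made up 82.3, 78.6, 79.8 and 81.1% of these sums and miR-29c-3p 14, 16.5, 17.1 and 15.8%. Both miR-29b-3p rows stood near 130 CPM in clean-air C57BL/6J, miR-29a-5p near 60 CPM, and the remaining 5p rows under 10 CPM.

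**Figure D1:**
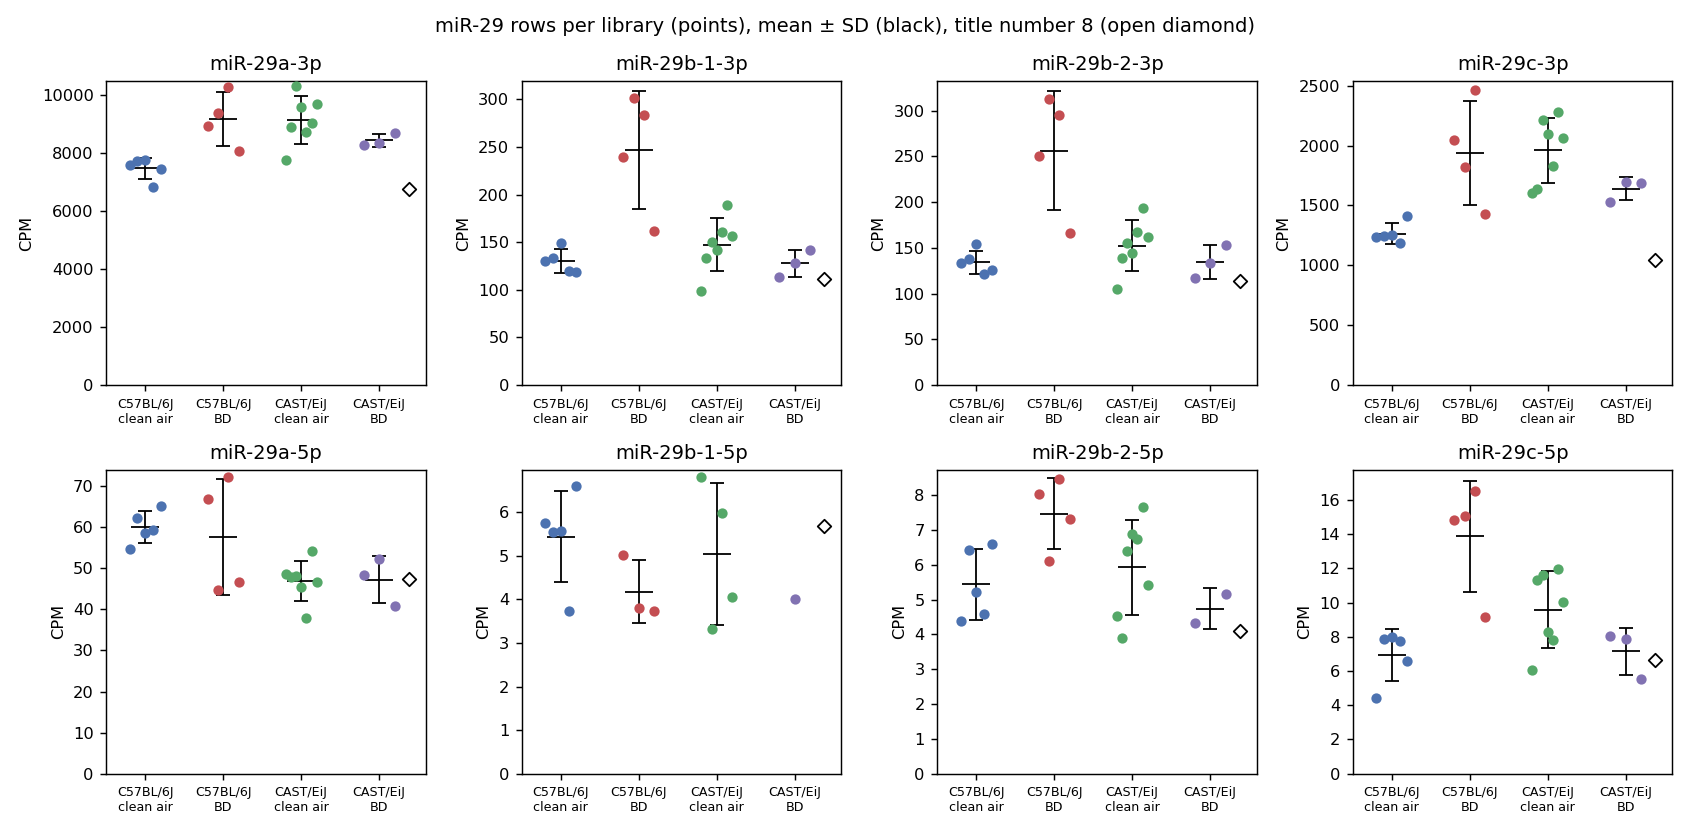
CPM of the 8 miR-29 rows in each library (points), with the mean and SD of each group in black and library number 8 as an open diamond. In C57BL/6J the BD libraries lie above every clean-air library for 5 rows, and for miR-29a-5p they spread from 44.6 to 72.25 CPM around the clean-air values.

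To determine how BD changed the family in C57BL/6J lung, 4 BD libraries were set against 5 in clean air. The 3p arms of miR-29a, miR-29b and miR-29c and the 5p arm of miR-29c rose, and miR-29a-5p did not pass the test. In all, 5 of 6 tested rows rose (edgeR quasi-likelihood, Benjamini-Hochberg adjusted p under 0.05). Of all 320 tested miRNAs, 31.6% were called in this comparison and 19.1% were called higher.

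miR-29b-3p was the most strongly raised 3p arm. In clean air its locus 1 row was measured at 129.8, 133.0, 149.4, 119.6 and 118.8 CPM (numbers 3, 4, 5 and 6, and last the 1 over 100). Under BD the values were 239.1, 301.9, 283.4 and 162.1 CPM (numbers 15, 16, 17 and 18). All 4 BD libraries were above the highest clean-air library, and number 18 was the lowest of them. The log2 fold change was 0.92 ± 0.17 (SE), a 1.90-fold rise (adjusted p = 0.000758), and the locus 2 row, which repeats it, rose 1.91-fold.

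miR-29c rose on both arms. miR-29c-3p stood at 1233, 1243, 1253, 1182 and 1409 CPM in clean air and at 2043, 1824, 2467 and 1424 CPM under BD, in the same order of libraries. The groups did not overlap, but number 18 exceeded the highest clean-air library, the 1 numbered over 100, by a small margin. The rise was 1.53-fold (log2 fold change 0.62 ± 0.14 SE, adjusted p = 0.00248). miR-29c-5p, the scarce arm of that hairpin, was measured at 4.396, 7.874, 8.008, 7.742 and 6.599 CPM in clean air and at 14.8, 15.05, 16.5 and 9.126 CPM under BD. It rose 2.03-fold (log2 fold change 1.02 ± 0.21 SE, adjusted p = 0.00156), again with no overlap.

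miR-29a, the most abundant member, rose least, and on its 3p arm alone among the tested arms. miR-29a-3p had 7574, 7702, 7757, 6826 and 7431 CPM in clean air and 8925, 9378, 10270 and 8054 CPM under BD, a 1.23-fold rise without overlap (log2 fold change 0.30 ± 0.088 SE, adjusted p = 0.0148). miR-29a-5p had 54.78, 62.12, 58.49, 59.36 and 65.05 CPM in clean air and 66.84, 44.6, 72.25 and 46.54 CPM under BD. Its BD libraries lay on both sides of the clean-air range (log2 fold change -0.05 ± 0.14 SE, adjusted p = 0.806). In all, 5 of 6 rows had BD libraries wholly above clean air, against 12.5% of the 320 miRNAs.

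The rise was larger in the deepest libraries. Numbers 15, 16 and 17 alone were above clean air by a mean log2 difference of 0.35 (miR-29a-3p), 1.08 (miR-29b-1-3p), 0.73 (miR-29c-3p) and 1.19 (miR-29c-5p). Number 18 alone was above it by 0.11, 0.32, 0.18 and 0.43, and for miR-29b-2-3p by 0.31. That number 18 stood above each of the 5 clean-air libraries for these 5 rows only restates the lack of overlap. Without numbers 15, 16 and 17 none of the 5 rows passed, with log2 fold changes of 0.13–0.40 and edgeR adjusted p of 0.58–0.706, and no other miRNA passed. That fit assumes that the lone library left varies like the other groups. When every library was thinned to the smallest total, 4 of the 5 rows passed (adjusted p 0.000894–0.0177) and miR-29c-5p did not (log2 fold change 0.67, adjusted p = 0.074). Whatever else sets numbers 15, 16 and 17 apart was not tested.

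For the rows that rose in C57BL/6J, the BD and clean-air ranges did not overlap. Their differences are therefore positive against any set of clean-air libraries, and only the size can vary. Against the 1 clean-air library numbered over 100 the BD libraries were higher by a log2 difference of 0.30 (miR-29a-3p), 1.0 (miR-29b-1-3p), 0.43 (miR-29c-3p) and 1.04 (miR-29c-5p). Against numbers 3 to 6 they were higher by 0.29, 0.86, 0.63 and 0.99. With the split of title numbers (1 to 10 against 15 and above) as a covariate, 3 rows passed, and miR-29a-3p (adjusted p = 0.186) and miR-29c-3p (0.0788) did not. miR-29a-3p also did not pass without the numbers over 100 (0.0616), with only the compared groups in the fit (0.0838), with library totals in place of TMM factors (0.0767) and without BD number 17 (0.0679).

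In CAST/EiJ lung, 3 BD libraries were set against 7 in clean air, and no miR-29 row passed the edgeR test, against 2.81% of all 320 miRNAs. No row had an unadjusted p under 0.05 either, and DESeq2 called none of the 4 rows to which it gave an adjusted p (it gave none for miR-29a-5p and miR-29c-5p). The BD and clean-air ranges overlapped for all 6 rows, whereas 10.9% of the 320 miRNAs did not overlap. The fitted log2 fold changes ran from -0.42 (miR-29c-5p) to 0.01 (miR-29a-5p). miR-29b-1-3p was at 113.8, 128.4 and 142.2 CPM under BD (numbers 7, 9 and 10) and at a lowest 98.8, median 150.6 and highest 189.4 CPM in clean air, which enclosed all BD values (log2 fold change -0.20 ± 0.18 SE, adjusted p = 0.496). The clean-air range also enclosed miR-29a-3p, with 8251, 8338 and 8691 CPM under BD against 7731, 9031 and 10290 CPM (log2 fold change -0.12 ± 0.092 SE, adjusted p = 0.449). miR-29c-3p stood at 1529, 1699 and 1690 CPM, against 1603, 2063 and 2282 CPM in clean air, with number 7 below the clean-air range (log2 fold change -0.26 ± 0.14 SE, adjusted p = 0.311). miR-29c-5p had 8.019, 7.885 and 5.561 CPM, against 6.033, 10.02 and 11.98 CPM (log2 fold change -0.42 ± 0.25 SE, adjusted p = 0.334).

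The clean-air CAST/EiJ libraries were themselves divided by number, which bears on these values. The 5 numbered over 100 were above numbers 1 and 2 by a mean log2 difference of 0.47 for miR-29b-1-3p and 0.37 for miR-29c-3p, without overlap. Against numbers 1 and 2 the BD libraries differed by 0.15 (miR-29b-1-3p), 0.02 (miR-29c-3p) and 0.02 (miR-29a-3p). Against the 5 numbered over 100 they differed by -0.32, -0.35 and -0.17, with all BD libraries below these 5 for miR-29c-3p and miR-29a-3p. The CAST/EiJ difference for these 3 rows thus depended on the clean-air libraries used. Against numbers 1 and 2 the ranges overlapped for all 3, and miR-29c-3p and miR-29a-3p hardly differed. miR-29c-5p was lower against either set (-0.23 and -0.47), with overlap. These differences within the number series were not tested.

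Library number 8 had 6751 CPM of miR-29a-3p, 111 CPM of miR-29b-1-3p, 1041 CPM of miR-29c-3p and 6.641 CPM of miR-29c-5p. The first 3 of these values were below every library of all 4 groups except for miR-29b-1-3p, where CAST/EiJ number 1 was lower at 98.8 CPM. When it was kept under its label, again no row passed in CAST/EiJ.

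The difference between the strains in BD response was tested as an interaction, which divides the BD ratio of CAST/EiJ by that of C57BL/6J. It was called below 1 for 5 of 6 rows, whereas 27.8% of the 320 miRNAs were called and 15.3% were called lower. The log2 interaction was -1.44 ± 0.32 (SE) for miR-29c-5p, -1.13 ± 0.25 for miR-29b-1-3p, -1.12 ± 0.25 for miR-29b-2-3p and -0.88 ± 0.20 for miR-29c-3p (edgeR adjusted p = 0.00429 for each of these 4). It was -0.41 ± 0.13 for miR-29a-3p (adjusted p = 0.0226) and 0.06 ± 0.20 for miR-29a-5p (adjusted p = 0.857). All 5 calls ended without the numbers over 100 (log2 from -1.26 to -0.24, adjusted p 0.0674–0.343), with the split of numbers as a covariate (0.146–0.499) and without numbers 15, 16 and 17 (0.228–0.379). With the numbers over 100 as a covariate, 4 calls held (adjusted p = 0.0118) and that of miR-29a-3p did not (0.0644). The call of miR-29c-5p also ended on thinning (log2 -0.94, adjusted p = 0.0955) and that of miR-29a-3p with library totals in place of TMM factors (0.0843). The call of miR-29a-3p was also lost without C57BL/6J BD number 17 or without CAST/EiJ BD number 7 or 9 (adjusted p up to 0.0594).

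**Figure D2:**
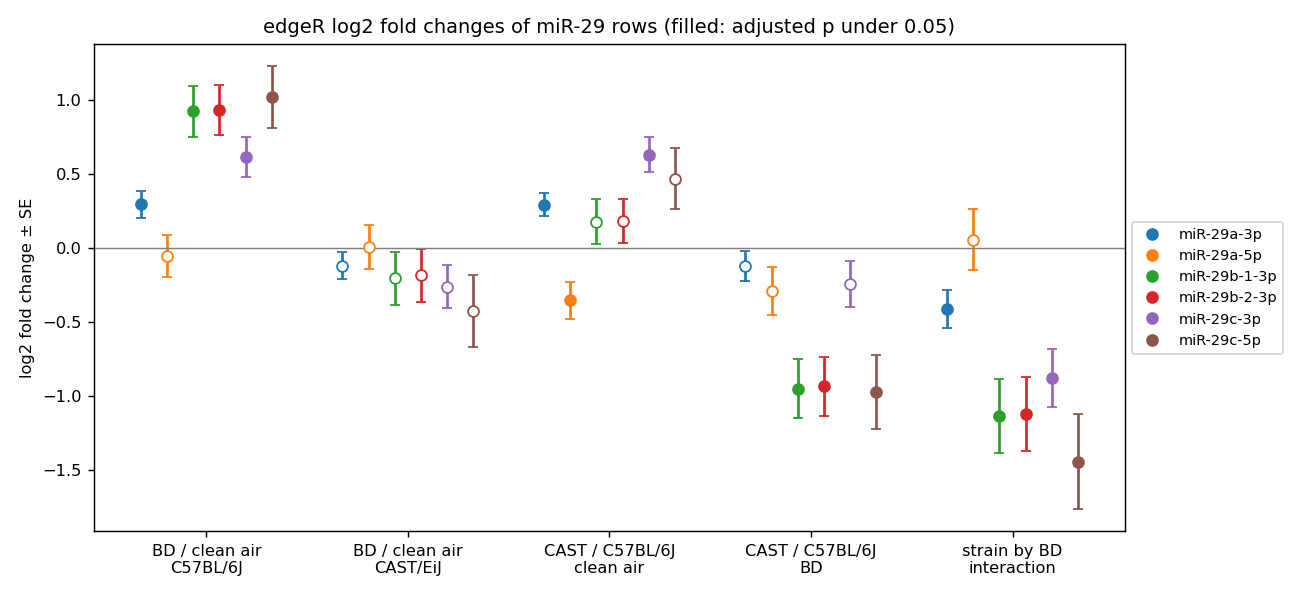
edgeR log2 fold change ± SE of the 6 tested rows in 5 comparisons, with filled points at an adjusted p under 0.05. The filled points of the BD comparison in C57BL/6J lie between 0.30 and 1.02, every point of the CAST/EiJ comparison is open, and the filled interaction points lie between -1.44 and -0.41.

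In clean air the strains differed most in miR-29c. miR-29c-3p was higher in CAST/EiJ, with 1961 ± 272 CPM (SD, n = 7) and 1264 ± 85.5 CPM in C57BL/6J (SD, n = 5), and the lowest CAST/EiJ library, 1603 CPM, was above the highest C57BL/6J library, 1409 CPM. The difference was 1.55-fold (log2 fold change 0.63 ± 0.12 SE, adjusted p = 0.000337). miR-29a-3p was 1.22-fold higher (9136 ± 820 against 7458 ± 375 CPM, adjusted p = 0.00542), with an overlap at the lowest CAST/EiJ library. miR-29a-5p went the other way, with 46.99 ± 4.86 CPM (SD, n = 7) in CAST/EiJ and 59.96 ± 3.87 CPM (SD, n = 5) in C57BL/6J, 1.27-fold lower without overlap (adjusted p = 0.0301). miR-29b-1-3p (log2 fold change 0.18, adjusted p = 0.352) and miR-29c-5p (0.47, adjusted p = 0.0722) did not pass. Thus 2 of 6 rows were called higher and 1 lower, against 21.2% and 18.4% of the 320 miRNAs, or 39.7% in both directions. The ranges of the strains were apart for 1 row above and 1 below, against 10.9% and 9.38% of the 320 miRNAs.

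Within the number series the log2 strain difference for miR-29c-3p was 0.40 for numbers 1 and 2 against numbers 3 to 6. Between the libraries numbered over 100 it was 0.57. In the same order, the strain difference was 0.15 and 0.35 for miR-29a-3p and -0.28 and -0.50 for miR-29a-5p. For miR-29c-3p and miR-29a-5p the strains did not overlap in clean air, so the sign was fixed and only the size could vary. For miR-29b-1-3p the sign differed, -0.21 and 0.42. Without the numbers over 100, none of the 3 calls held (adjusted p = 0.114 for miR-29c-3p, 0.493 for miR-29a-3p and 0.345 for miR-29a-5p). That of miR-29a-5p was also lost with the numbers over 100, or with the split of numbers, as a covariate (0.0625 in both). The call of miR-29a-5p was also lost without any 1 of 4 libraries (adjusted p up to 0.0632), which were C57BL/6J number 4, the C57BL/6J library numbered over 100 and 2 CAST/EiJ libraries numbered over 100. miR-29c-5p passed without CAST/EiJ number 1 (0.029) and without C57BL/6J BD number 18 (0.0444).

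**Figure D3:**
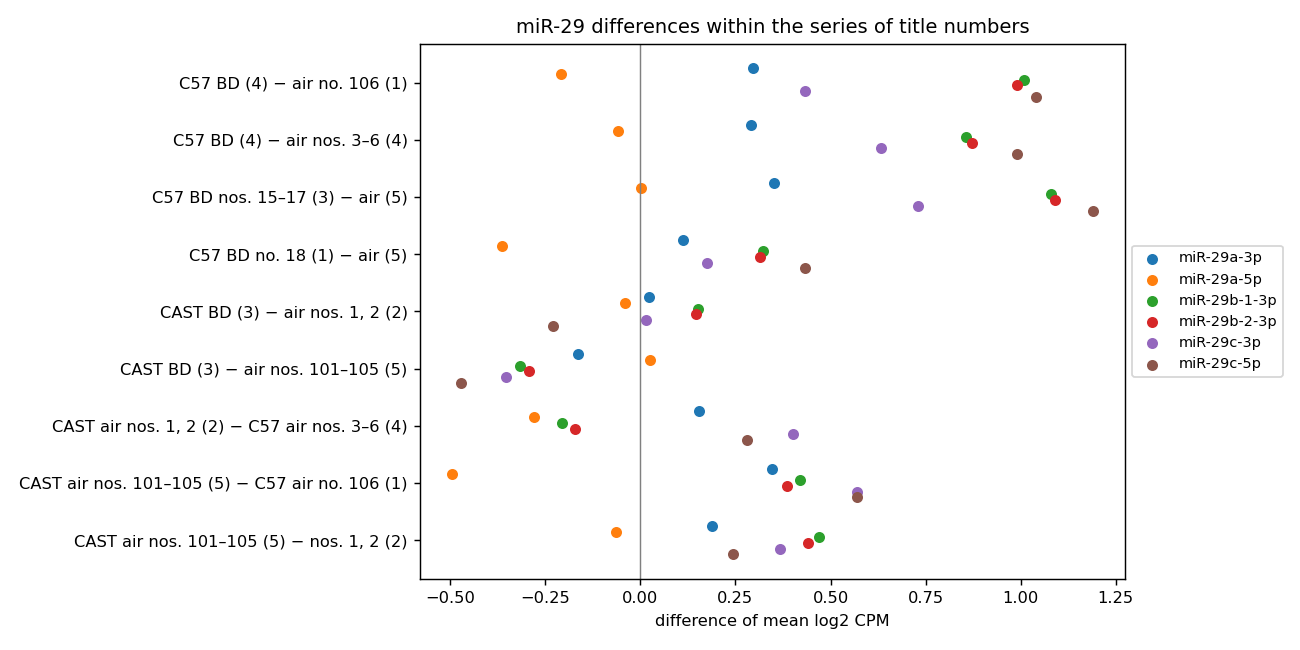
Differences of mean log2 CPM for the 6 tested rows between subsets of libraries defined by title number, with the number of libraries in brackets. The 5 rows that rose in C57BL/6J did so without overlap, so any choice of libraries in that strain puts them right of 0. Only the size of their differences can vary. The CAST/EiJ differences fall on both sides of 0.

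Under BD, miR-29b-3p and miR-29c-5p were lower in CAST/EiJ than in C57BL/6J. miR-29b-1-3p was 1.93-fold lower in CAST/EiJ (adjusted p = 0.00108), at 128.1 ± 14.2 CPM (SD, n = 3), whereas C57BL/6J was at 246.7 ± 62.2 CPM (SD, n = 4). miR-29c-5p was 1.96-fold lower, at 7.155 ± 1.38 against 13.87 ± 3.25 CPM (adjusted p = 0.0045). Neither row overlapped between the strains, and 24.4% of the 320 miRNAs were likewise lower without overlap. The 2 rows of miR-29b-3p and miR-29c-5p were the 3 of 6 called, all lower, against 41.9% of the 320 miRNAs called and 23.4% called lower. miR-29a-3p (log2 fold change -0.12, adjusted p = 0.343), miR-29c-3p (-0.24, 0.21) and miR-29a-5p (-0.29, 0.153) did not pass. Without C57BL/6J BD number 18, miR-29c-3p passed (-0.37, 0.0406). All 3 calls were lost without numbers 15, 16 and 17 (adjusted p 0.425–0.549), and that of miR-29c-5p also on thinning (0.0816) and with the split of numbers as a covariate (0.0699).

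The 5p arms of miR-29b were scarce. miR-29b-2-5p was unlisted in 1 of 20 libraries and otherwise had 12–64 counts. It was at 4.396, 6.416, 5.223, 4.588 and 6.599 CPM in clean-air C57BL/6J and at 8.026, 6.1, 8.45 and 7.301 CPM under BD, and these groups overlapped. miR-29b-1-5p was unlisted in 6 libraries and had 13–40 counts in the rest. With unlisted values as 0, neither passed in any comparison (edgeR adjusted p from 0.107 to 0.941), and depth limits what could be detected at these counts. The table listed only values above a minimum, so an unlisted row is not a count of 0.

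The balance of the arms was compared within miR-29a and miR-29c as the log2 ratio of 3p to 5p counts, over 8 comparisons. In miR-29a the 3p arm outnumbered the 5p arm by a median 124-fold in clean-air C57BL/6J (range 114.2–138.3) and 207.9-fold in clean-air CAST/EiJ (158.9–230.1). The groups did not overlap, and the log2 ratios were 6.96 ± 0.122 (SD, n = 5) and 7.60 ± 0.20 (SD, n = 7), a difference of 0.65 (two-sided exact permutation p = 0.00126, the smallest these groups allow, adjusted p = 0.0101). The C57BL/6J BD libraries, at 133.5–210.3-fold, overlapped both of these groups (difference from clean air 0.38, exact permutation p = 0.0159, adjusted p = 0.0635). In miR-29c the ratio was 120.9–156.1-fold in C57BL/6J under BD and 190.7–303.9-fold in CAST/EiJ under BD, which did not overlap. That difference was 0.70 in log2 (exact permutation p = 0.0286, the smallest these groups allow, adjusted p = 0.0762). The other 5 comparisons had adjusted p of 0.222–0.571, among them miR-29c under BD in C57BL/6J (difference -0.38).

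Across the 19 libraries the rows formed no single pattern. As a description over libraries that share strain, exposure and depth, miR-29a-3p followed miR-29c-3p (Pearson r 0.914) more closely than its own 5p arm (-0.227). On group-centred values these were 0.773 and 0.231. The 3p sequences of miR-29a and miR-29c differ at 1 of 22 bases, and sharing of reads between their rows was not tested. miR-29b-1-3p was closest within the family, beside its second locus, to miR-29c-5p (0.801), but on group-centred values to miR-29a-3p (0.717) and miR-29c-3p (0.705), with miR-29c-5p at 0.576. Outside the family, miR-106b-5p, a member of the miR-17 group, was most like both miR-29a-3p (0.923) and miR-29c-3p (0.954), and on group-centred values it was still at 0.842 and 0.942. The miR-29b-1-3p row was most like miR-34a-5p (0.943), a well-known p53 target, and miR-24-3p (0.931 at either locus). miR-34a-5p averaged 91.1, 204, 111 and 94.6 CPM in clean-air C57BL/6J, C57BL/6J BD, clean-air CAST/EiJ and CAST/EiJ BD. miR-29c-5p was most like miR-144-3p (0.856), miR-33-5p (0.842) and miR-451 (0.834), of which miR-144 and miR-451 are erythroid miRNAs. miR-29a-5p had its closest match in miR-194-2-5p (0.705).

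The RNA-seq table, made from poly(A) RNA, also held rows for the miR-29 loci, with 5–36 counts a library for Mir29a, 0–13 for Mir29b-1, 5–65 for Mir29b-2 and 9–157 for Mir29c. Mir29b-1 did not pass the filter on low counts. These counts are of longer transcripts over the loci and not of mature miRNAs, and the sources used here do not say whether counting used strand.

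Mir29c was the locus row that differed between the strains in the main fit. Of all 17377 tested genes, 60.4% were called between the strains in clean air (29.4% higher). In clean-air C57BL/6J Mir29c was at 0.8994, 0.8266, 1.612, 1.307 and 1.196 CPM (numbers 3, 4, 5 and 6, and last the 1 over 100). In clean-air CAST/EiJ it ran from 1.752 through a median of 2.027 to 3.253 CPM. The CAST/EiJ libraries were all higher, 1.88-fold in the fit (log2 fold change 0.91, adjusted p = 0.000287), the direction seen for miR-29c-3p. Under BD the C57BL/6J libraries were at 1.536–2.145 CPM (median 1.66), which overlapped clean air (log2 fold change 0.58, adjusted p = 0.0618). That row passed without C57BL/6J number 5 (0.0371) or CAST/EiJ number 2 (0.0369). Mir29a did not pass in C57BL/6J (0.36, 0.368) or in CAST/EiJ (0.30, 0.384). Between the strains in clean air Mir29b-2 did not pass in the main fit (log2 fold change 0.09). It passed in 1 of 8 alternative settings (adjusted p = 0.0368).

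Mir29b-2 rose under BD in CAST/EiJ, the strain in which mature miR-29b-3p did not pass. It was at 1.44, 1.701, 1.304, 1.679 and 1.329 CPM (numbers 7, 9, 10, 11 and 12), against 0.4055–1.556 CPM in clean air (median 0.6425; log2 fold change 0.93, adjusted p = 0.0327). Clean-air numbers 1 and 2, at 1.11 and 1.556 CPM, stood above the 5 numbered over 100, all at 0.4055–0.6556 CPM. Without the numbers over 100 the log2 fold change was 0.16 (adjusted p = 0.859), and with the numbers over 100 as a covariate 0.38 (0.644). The call was also lost without any 1 of these 5 clean-air libraries and without BD number 7, 9, 10 or 11 (adjusted p up to 0.0687). In C57BL/6J the row did not pass (0.16, 0.791). The part of the number series in this rise was not tested beyond these values.

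**Figure D4:**
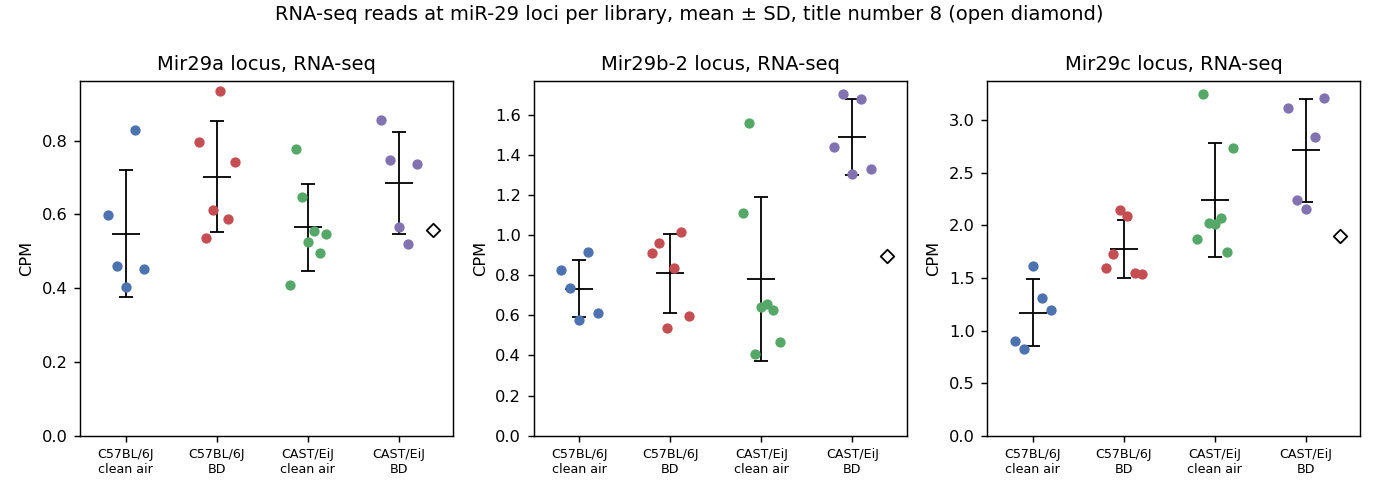
RNA-seq CPM at the Mir29a, Mir29b-2 and Mir29c loci in each library (points), with the mean and SD of each group in black and library number 8 as an open diamond. All 7 clean-air CAST/EiJ libraries are above the clean-air C57BL/6J libraries for Mir29c, and the clean-air CAST/EiJ libraries split into a higher pair and a lower set for Mir29b-2.

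Genes known as miR-29 targets were examined in RNA-seq in 3 lists, with 62 of 63 genes tested. Under BD in C57BL/6J, where the miRNAs rose, 7 of 62 fell and 1 rose, or 12.9%, against 10.7% of all 17377 tested genes (6.49% lower and 4.20% higher). Their median log2 fold change was -0.04, against -0.0024 for all genes. Under BD in CAST/EiJ 1 fell and 5 rose, or 9.68%, against 7.22% of all genes (3.37% lower and 3.86% higher), with a median of -0.05 against -0.02. In clean air 17 were higher and 20 lower in CAST/EiJ, or 59.7%, against 60.4% of all genes (29.4% higher and 31.0% lower). The BD response was called different between the strains for 8 upward and 1 downward, or 14.5%, against 9.44% of all genes (5.62% and 3.82%). The lists were not tested as sets.

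Among 29 matrix genes, 1 rose and 2 fell under BD in C57BL/6J, or 10.3%, against 10.7% of all genes. The protease Adamts9 rose 1.46-fold, from 54.26 ± 14.8 CPM (SD, n = 5) to 79.42 ± 5.5 CPM (SD, n = 6; adjusted p = 0.0388). Fbn2, which encodes the microfibril protein fibrillin 2, fell 3.29-fold from 2.129 ± 0.566 to 0.6598 ± 0.221 CPM, without overlap between 1.497–2.976 and 0.3417–0.8917 CPM (adjusted p = 0.000458). Hspg2, which encodes the basement membrane proteoglycan perlecan, fell 1.70-fold (adjusted p = 0.0325). The fibrillar collagens Col1a1 (log2 fold change -0.38, adjusted p = 0.435) and Col3a1 (0.24, 0.573) and the elastin gene Eln (0.34, 0.0732) did not pass. In CAST/EiJ only Fn1, the fibronectin gene, passed among the 29 (1.36-fold higher, adjusted p = 0.0219), or 3.45%, against 7.22% of all genes. Col1a1 (log2 fold change -0.51, adjusted p = 0.219), Col3a1 (-0.46, 0.162) and Eln (-0.05, 0.808) did not pass.

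Between the strains in clean air 11 matrix genes were higher and 4 lower in CAST/EiJ, 51.7% of the list, against 60.4% of all genes (29.4% higher and 31.0% lower). Col3a1 was 2.15-fold higher (adjusted p = 0.00017), at 1469 ± 304 CPM (SD, n = 7), and C57BL/6J had 683.4 ± 225 CPM (SD, n = 5). Mmp2, a gelatinase, was 2.13-fold higher (adjusted p = 5.76e-07) and Eln 1.65-fold higher (adjusted p = 1.35e-05). Lox, a collagen cross-linking enzyme, was 2.44-fold lower (adjusted p = 1.08e-07) and Hspg2 2.01-fold lower (adjusted p = 0.000457). Col1a1 did not pass (log2 fold change -0.21, adjusted p = 0.511). Fibroblast marker genes (Pdgfra, Dcn and Lum) summed to 597.5–859.1 CPM in clean-air C57BL/6J and 727.7–831.4 CPM in clean-air CAST/EiJ, with 1 of 3 called higher in CAST/EiJ. That gene, Lum, which encodes the matrix proteoglycan lumican, was 5.5-fold higher (adjusted p = 1.14e-07), at 53.46–88.23 CPM against 9.277–20.06 CPM. Their part in these values was not tested.

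The 7 genes of DNA methylation and demethylation stood lower in CAST/EiJ in clean air in 5 cases and higher in none, or 71.4%, against 60.4% of all genes (31.0% lower). Tet1 was 2.42-fold lower (adjusted p = 4.54e-06), with a mean of 9.536 ± 3.78 CPM (SD, n = 7) and of 23.13 ± 3.67 CPM in C57BL/6J (SD, n = 5), and Tet3 2.35-fold lower (62.95 ± 7.61 against 148.4 ± 25.1 CPM, adjusted p = 1.41e-09). Dnmt3a, a de novo DNA methyltransferase, was lower by a log2 fold change of -0.61 (adjusted p = 3.79e-05), and Dnmt3b did not pass (-0.22, 0.216). Under BD in C57BL/6J only Tet3 passed of these 7 (14.3%, against 10.7% of all genes), 1.52-fold lower at 97.73 ± 14.8 CPM (SD, n = 6; adjusted p = 0.00156). Dnmt3a (log2 fold change -0.25, adjusted p = 0.169), Dnmt3b (-0.03, 0.95) and Tet1 (-0.55, 0.071) did not. Dnmt3a passed there without the numbers over 100 (-0.30, adjusted p = 0.0113), and so did Tet1 (-0.64, 0.00853). Of 8 alternative settings Dnmt3a passed in 3 and Tet1 in 5, with adjusted p from 0.00319 to 0.25 and from 0.00309 to 0.128. Tet1 also passed without the C57BL/6J library numbered over 100 (0.0402) or CAST/EiJ number 1 (0.0151).

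Under BD in CAST/EiJ 2 of the 7 rose, or 28.6%, against 7.22% of all genes (3.86% higher). Dnmt3a was 1.28-fold higher (adjusted p = 0.0479), at 84.36 ± 7.21 CPM under BD (SD, n = 5) and 65.98 ± 14.5 CPM in clean air (SD, n = 7), and Tet2 1.23-fold higher (adjusted p = 0.0442). The log2 fold change of Dnmt3a was -0.02 without the numbers over 100 (adjusted p = 0.95) and 0.05 with them as a covariate (0.911), and 19 of 23 omissions of a single library ended the call (adjusted p up to 0.107). Dnmt3b (0.29, 0.206) and Tet1 (0.40, 0.172) did not pass. Without clean-air number 1 both passed, Dnmt3b at 0.42 (adjusted p = 0.0262) and Tet1 at 0.61 (0.01).

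**Figure D5:**
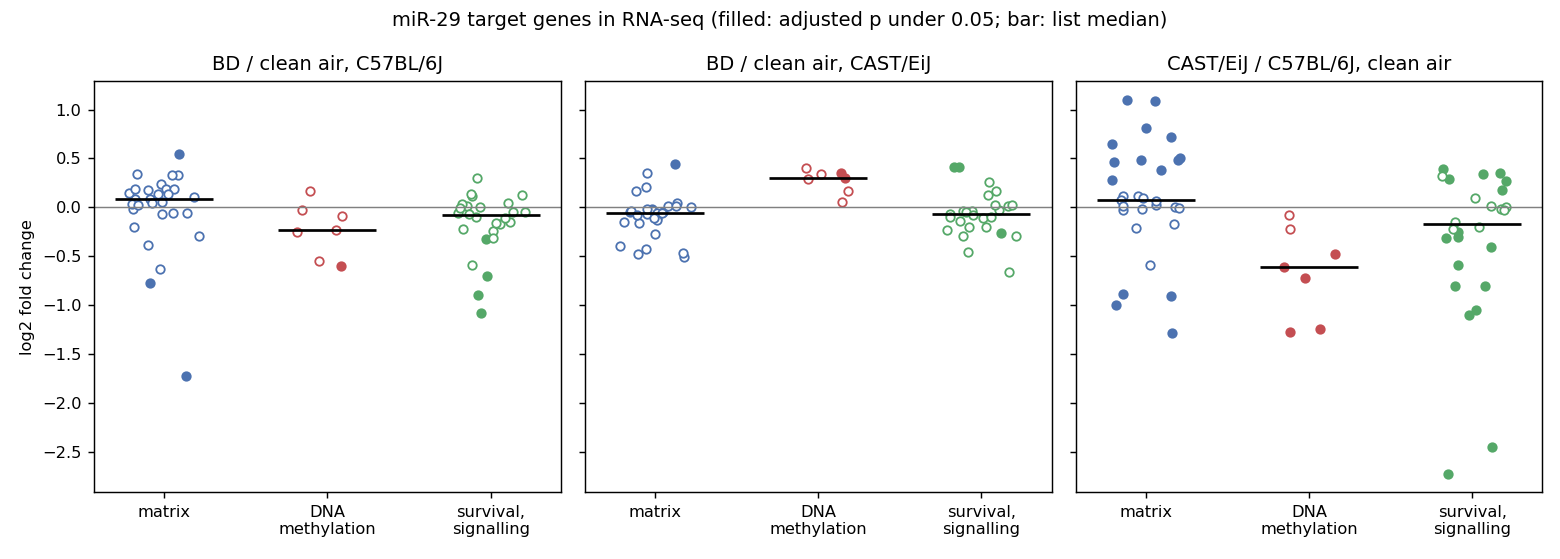
edgeR log2 fold changes of miR-29 target genes in RNA-seq for 3 lists and 3 comparisons, with filled points at an adjusted p under 0.05 and bars at list medians. Most points under BD are open in either strain, and the 5 filled points of the DNA methylation list in the strain comparison are all below 0.

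Of 26 tested survival and signalling targets, 4 fell under BD in C57BL/6J and none rose, or 15.4%, against 10.7% of all genes (6.49% lower). Mycn, a growth-promoting transcription factor, fell 2.12-fold (adjusted p = 0.0114) and Eomes, a transcription factor of T and NK cells, 1.85-fold (adjusted p = 0.0209). The others were Pdgfb (log2 fold change -0.70) and Ccnd2 (-0.33), named after their values were seen. In CAST/EiJ the pro-apoptotic Bcl2l11 and the cell cycle kinase Cdk6 rose 1.33-fold (adjusted p = 0.00669 and 0.0354), and the GTPase gene Cdc42 was 1.20-fold lower (adjusted p = 0.0441). Together they were 11.5% of the 26, against 7.22% of all genes (3.86% higher and 3.37% lower). Mcl1, an inhibitor of apoptosis, did not pass in either strain (log2 fold change -0.15, adjusted p = 0.438, and 0.01, 0.949). Between the strains 6 were higher and 11 lower in CAST/EiJ, or 65.4%, against 60.4% of all genes, with the tropomyosin gene Tpm1 1.28-fold higher, Tbx21, which directs type 1 T helper cells, 6.57-fold lower and Eomes 5.45-fold lower.

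Markers of T and B cells moved in the same comparisons. The T cell genes Cd3e, Cd3g and Cd8a summed to 12.54–20.57 CPM in clean-air C57BL/6J, 7.182–13.21 CPM in C57BL/6J under BD and 2.735–6.277 CPM in CAST/EiJ. Of these, 2 of 3 fell under BD in C57BL/6J, where 10.7% of all genes were called (6.49% lower). The B cell genes Cd79a and Ms4a1 fell 2.84-fold and 2.54-fold under BD in C57BL/6J (adjusted p = 0.0171 and 0.00968) and were 2.78-fold and 2.76-fold lower in clean-air CAST/EiJ than in clean-air C57BL/6J (adjusted p = 0.00201 and 0.000322). Between the strains in clean air 60.4% of all genes were called (31.0% lower). In C57BL/6J, Ms4a1 ranged over 36.72–50.14 CPM for clean air and 10.76–29.48 CPM for BD, without overlap. Under BD in CAST/EiJ none of these T and B cell genes passed. Fewer cells of a type and less RNA per cell cannot be told apart in whole lung. The part of these cells in the values of the target and regulator genes was not tested.

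Of 12 genes known to regulate the family, 4 fell under BD in C57BL/6J and none rose, or 33.3%, against 10.7% of all genes (6.49% lower). Tgfb1, whose protein lowers miR-29 in fibroblasts, fell 2-fold from 24.52 ± 6.95 CPM (SD, n = 5) to 12.19 ± 2.53 CPM (SD, n = 6; adjusted p = 0.00228), and the ranges 19.04–36.56 and 7.679–14.53 CPM did not overlap. Trp53, which encodes p53, fell 1.59-fold (adjusted p = 0.00563). The others were Gata3 (log2 fold change -0.66) and the NF-kappaB subunit Rela (-0.43), named after their values were seen. No regulator passed in CAST/EiJ under BD, where 7.22% of all genes did. In clean air 2 were higher and 5 lower in CAST/EiJ, or 58.3%, against 60.4% of all genes. Among them were Myc, a repressor of miR-29 transcription (1.56-fold higher, adjusted p = 0.00423), Nfe2l2 (1.20-fold higher), Tgfb1 (2.89-fold lower, adjusted p = 3.4e-07) and Trp53 (1.80-fold lower).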

How the data were processed

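Small RNA and poly(A) RNA libraries of mouse lung were analysed from whole-series tables. Values of the small RNA table were estimated counts, deposited by the authors for each mature sequence at each locus, of which 64.1% were whole within 1e-06, and they were rounded. The RNA-seq table held gene counts, deposited by the authors. Per the submitters' processing notes, Bowtie aligned the small RNA and GSNAP the RNA reads to mm9. Their versions, the counting tool and the annotation are not given in the sources used here. The 320 rows with a value in every library, at least 98.4% of each library's counts, were tested, and the 21 genes without a value in some library were left out.

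For each assay a single model, with a mean for every group, was fitted in edgeR 4.0.16 (R 4.3.3) with TMM scaling, filterByExpr and robust quasi-likelihood F tests, over 19 small RNA and 23 RNA libraries, without number 8. DESeq2 1.42.0 was an alternative. Adjusted p (Benjamini-Hochberg over all rows tested) under 0.05 was called. CPM are counts per 1e+06 of the TMM-scaled library. The SE of a log2 fold change is its size divided by the square root of F. Arm ratios used a pseudocount of 0.5 and exact permutation tests. Correlations used log2 CPM with a prior count of 2. No pair of libraries were copies (smallest chi-square per degree of freedom 20.7 over 190 small RNA pairs and 5.02 over 276 RNA pairs). The tests were checked on simulated counts. The members and the gene lists, from general knowledge, were chosen with earlier results of these data known. All miR-29 rows, the 3 most correlated miRNAs of each, and, per list and direction, up to 2 called genes of largest fold were named if a group compared averaged 1 CPM or more. Col1a1, Col3a1, Eln, Dnmt3a, Dnmt3b, Tet1 and Mcl1 were always named. Alternatives covered scaling, filter, tool, covariates, single omissions, library number 8, unlisted values as 0 and the summed miR-29b loci. Some genes that the naming rule or the marker lists would include are not reported here.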

Additional observations from a re-analysis of the deposited data

Results flagged for a closer look

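The BD response differed between the strains for 5 miR-29 rows by the edgeR interaction test. Of all tested miRNAs, 27.8% were called and 15.3% were called lower. The log2 ratios were -0.412 (miR-29a-3p), -1.13 (miR-29b-1-3p), -1.12 (miR-29b-2-3p), -0.876 (miR-29c-3p) and -1.44 (miR-29c-5p). The rows miR-29b-1-3p and miR-29b-2-3p are not independent measurements. All 5 calls ended without the libraries numbered over 100, and also with the split of title numbers as a covariate. The BD response also differed for the target genes Dnmt3a (0.602, adjusted p = 0.0244) and Tet1 (0.952, adjusted p = 0.0344). Of all tested genes, 9.44% were called. Without the libraries numbered over 100, the log2 fold change of Dnmt3a under BD in CAST/EiJ was -0.0249.

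Single libraries stood apart from their group in 3 of 68 groups of values examined, where chance gives about 1 in 20, or 3.4. Dnmt3b was at 7.88 CPM in C57BL/6J BD number 18, against 6.59–6.94 CPM in the other libraries. In clean-air CAST/EiJ number 1, Dnmt3b was at 9.34 CPM (others 4.62–6.56) and Tet1 at 17.3 CPM (others 5.86–10.3).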

How the results depend on the processing

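No paired analysis was possible because no groups of an assay share a title number. Of the miRNAs in the fit, 2.81% were called over BD in CAST/EiJ, against 7.19% with DESeq2, 4.38% without numbers 15, 16 and 17, 4.69% after thinning and 0.312–7.81% without single libraries. Over BD in C57BL/6J 31.6% were called, and 0% without numbers 15, 16 and 17. The clean-air strain share of 39.7% was 22.8% without the numbers over 100. Under BD the strain share of 41.9% was 25% with the split of numbers as a covariate and 8.75% without numbers 15, 16 and 17. The interaction share of 27.8% was 3.75% without the numbers over 100, 2.81% with the split covariate, 3.12% without numbers 15, 16 and 17, and 18.1–32.8% without single libraries (lowest without CAST/EiJ BD number 7). Target genes called in C57BL/6J under BD were 8, against 13 with DESeq2, with only the compared groups and without the numbers over 100, 15 with those numbers as a covariate and 4–11 without single libraries (4 without number 4 or 16, 5 without number 5). In CAST/EiJ they were 6, against 12 with library number 8 kept and with DESeq2, 1 with only the compared groups and without the numbers over 100, 0 with these as a covariate, 10 without the C57BL/6J library numbered over 100 and 1–15 without single libraries (15 without number 1, 11 without number 2). The shares of all genes called under these settings are not given here. These counts of target genes therefore cannot be told apart from a shift in the calls of all genes. Dnmt3a in CAST/EiJ under BD reversed without the numbers over 100 (log2 fold change -0.0249). The causes were not tested. Dropping numbers 15, 16 and 17 or the C57BL/6J library numbered over 100, thinning and library totals were chosen after seeing the data. Called miRNAs under BD in CAST/EiJ were 4 higher and 5 lower, against 4 and 2 with median-of-ratios factors and 10 and 3 with library totals. The arm ratio of miR-29a between strains in clean air kept its call under single omissions, number 8 kept and another pseudocount. These alternatives could hardly end it. The clean-air ranges did not overlap, so no omission could make them overlap, and number 8 is not a clean-air library. The ratio without the numbers over 100 was not tested. Low counts limit miR-29c-5p and the 5p arms of miR-29b.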

Other observations

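Genes that make and load miRNAs were measured in RNA-seq, with 15 of 19 listed symbols tested. In clean air 9 were lower and 2 higher in CAST/EiJ, or 73.3% of the list, against 60.4% of all genes. Tnrc6b, a scaffold of the silencing complex, was 1.88-fold lower (adjusted p = 1.83e-05) and Ago1 1.84-fold lower (adjusted p = 2.71e-08), whereas Ago4 was 1.61-fold higher (adjusted p = 1.15e-08) and the precursor exporter Xpo5 1.13-fold higher (adjusted p = 0.013). Under BD, Ago1 fell 1.25-fold in C57BL/6J (adjusted p = 0.0301), and none of the other 14 passed (6.67% called, against 10.7% of all genes). In CAST/EiJ 4 rose and none fell, or 26.7%, against 7.22% of all genes (3.86% higher), among them Tnrc6b (1.43-fold, adjusted p = 0.0401) and Tnrc6c (1.38-fold, adjusted p = 0.031). The others were Tnrc6a (log2 fold change 0.37) and Ago3 (0.44), named after their values were seen. For Tnrc6b the clean-air CAST/EiJ range of 126.9–269.3 CPM (median 138.9) enclosed the BD range of 238.1–258.2 CPM. The BD and clean-air ranges of Tnrc6c, Tnrc6a and Ago3 also overlapped. The part of the number series in these rises was not tested.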
